A study of Mus musculus with 10 samples.

Results

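In the chromatin of group 2 innate lymphoid cells (ILC2s), some open chromatin regions (OCRs) lie so close together that they form dense clusters. Within the rule, the regions were selected on the measured positions of the called peaks. The regions of the merged peak table were sorted along each chromosome, neighbours were joined where the gap from the end of 1 region to the start of the next was at most 12.5 kb, and every chain of 10 or more regions was kept. This gave 430 chains with 5909 of the 50039 regions, or 11.8%. A chain is called here by the protein-coding gene whose transcription start site (TSS) was nearest to most of its regions. The name is a label of position, and the gene that a region regulates was not measured.

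Accessibility was measured by ATAC-seq, in which the Tn5 transposase inserts adapters into open DNA, in ILC2s from lung, pancreas, small intestine (SI), large intestine (LI) and bone marrow (BM). There were 2 libraries for each of the 5 tissues, each from 50000 sorted cells pooled from 10 to 16 untreated male C57BL/6 mice aged 6 weeks. ILC2s of LI, lung and pancreas were sorted as lineage-negative cells with CD45, CD127, ST2 and CD25, those of BM by ST2 and CD25 on another sorter, and those of SI by KLRG1 and an intermediate to low Thy1 level without ST2. Tissue and gate therefore cannot be told apart for SI, nor tissue, gate and sorter for BM, while LI, lung and pancreas shared a gate, and p-values measure the spread between the 2 libraries of a tissue, which the study calls biological duplicates of pooled mice.

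ILC2s are tissue-resident lymphocytes that answer alarmins such as IL-33 and IL-25 with type 2 cytokines, chiefly IL-5 and IL-13, and they lack rearranged antigen receptors. In lymphocytes, genes that set cell identity often carry long stretches of closely spaced enhancers, and such stretches bind many transcription factors at once. Families known to act in ILC2s include GATA3, RUNX and ETS factors, the E protein antagonist ID2, TCF-1, BCL11B and the AP-1 factors that are induced by activation.

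The sequences below are the central 150 bases of the region with the largest spread between tissue means in 8 chains that carry the tissue differences described further on. They were read from the plus strand of GRCm38, and capitals mark a match, on either strand, to 1 of 6 short motifs. These were AGATAA for the GATA factors, TGTGGT for RUNX factors, TGANTCA for AP-1, CAGCTG for E-box proteins, CTTTGA for TCF/LEF factors and CCGGAA for ETS factors. A match is a description of the letters and not a shown binding site.
Il1rl1, chr1:40448445-40448594: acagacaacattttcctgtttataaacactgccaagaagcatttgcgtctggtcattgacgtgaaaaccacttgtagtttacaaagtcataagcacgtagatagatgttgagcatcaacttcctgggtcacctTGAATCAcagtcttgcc
Ramp1, chr1:91202442-91202591: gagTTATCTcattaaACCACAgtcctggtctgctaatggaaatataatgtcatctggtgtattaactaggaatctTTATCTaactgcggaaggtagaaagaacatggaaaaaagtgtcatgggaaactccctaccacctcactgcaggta
Nek7, chr1:138536120-138536269: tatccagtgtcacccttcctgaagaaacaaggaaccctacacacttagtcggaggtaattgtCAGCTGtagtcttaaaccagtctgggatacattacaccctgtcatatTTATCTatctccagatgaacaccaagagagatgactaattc
Il10, chr1:131022752-131022901: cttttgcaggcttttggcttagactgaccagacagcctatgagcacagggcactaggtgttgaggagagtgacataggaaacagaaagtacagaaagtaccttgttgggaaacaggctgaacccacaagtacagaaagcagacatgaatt
Zbtb16, chr9:48825284-48825433: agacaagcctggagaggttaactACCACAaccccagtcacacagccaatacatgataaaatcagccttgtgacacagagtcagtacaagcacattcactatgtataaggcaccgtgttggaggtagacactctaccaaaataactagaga
Alox5, chr6:116438866-116439015: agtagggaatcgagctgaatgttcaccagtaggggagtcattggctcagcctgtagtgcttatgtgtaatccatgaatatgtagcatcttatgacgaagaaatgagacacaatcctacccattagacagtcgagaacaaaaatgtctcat
Rgs3, chr4:62776875-62777024: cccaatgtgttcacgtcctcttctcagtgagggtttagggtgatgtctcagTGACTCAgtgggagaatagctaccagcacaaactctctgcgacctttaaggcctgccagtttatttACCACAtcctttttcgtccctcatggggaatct
Bcl11b, chr12:107961999-107962148: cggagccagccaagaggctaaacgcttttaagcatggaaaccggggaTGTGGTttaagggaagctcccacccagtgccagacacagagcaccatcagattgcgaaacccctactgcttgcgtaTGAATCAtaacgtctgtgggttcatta
The Ramp1 window held 2 GATA matches and 1 RUNX match, and Nek7 held 1 GATA match and 1 E-box match. Rgs3 and Bcl11b each held an AP-1 match and a RUNX match, Il1rl1 held 1 AP-1 match and Zbtb16 1 RUNX match. No match to these letters was found in the Il10 and Alox5 windows.

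Next come 2 further sequences from chains that lie in repeated DNA. Each is the run of 60 bases found in the most regions of its chain, with no part in capitals.
5S ribosomal RNA array, chr8:123539011-123539070: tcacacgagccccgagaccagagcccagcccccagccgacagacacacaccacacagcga
Start of chromosome 9, chr9:3001279-3001338: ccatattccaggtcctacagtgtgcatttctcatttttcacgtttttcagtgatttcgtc
The first run occurred in 39 of the 41 regions of its chain and the second in 14 of 27.

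The chains held 10 to 41 regions, with a median of 12, and spanned 26.2 to 148 kb, with a median of 59.6 kb and 27.0 Mb in all. The median gap inside a chain was 3670 bp, against 10314 bp between neighbours over the whole table. Values on both sides of the rule lay close together. The smallest gap not joined was 12502 bp, just above the limit, which the largest joined gap met. There were 101 chains of 10 regions and 145 chains of 9, which missed the rule, with median spans of 45.5 and 39.6 kb and median summed accessibility of 141 and 135 CPM (read counts scaled to the TMM library size). Chromosome 11 held the most chains, 45, followed by chromosome 1 with 36 and chromosome 9 with 33, while the X chromosome held 3 and the Y chromosome 1.

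**Figure D1:**
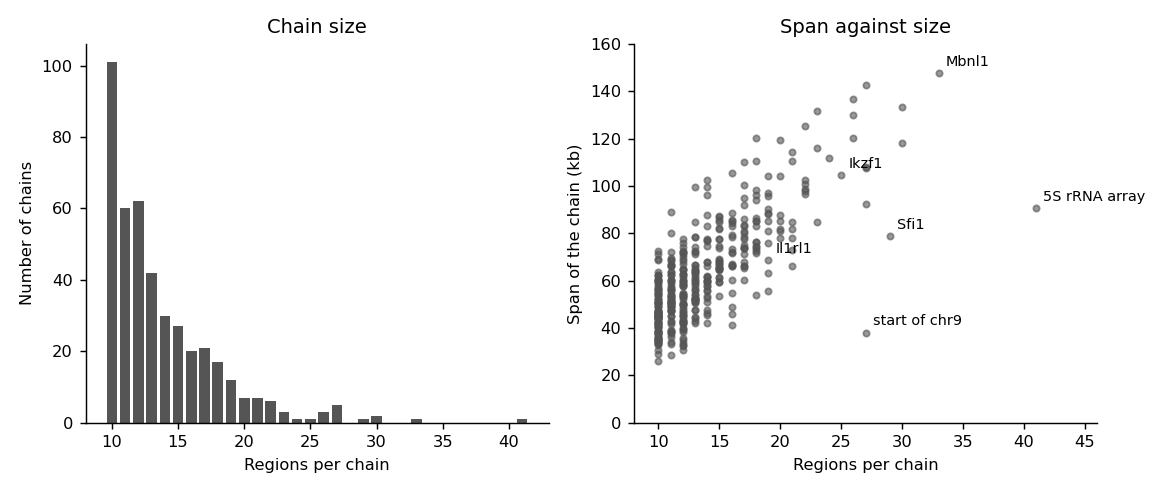
The left panel counts chains by their number of regions, and the right panel plots each chain's span in kb against its number of regions. Most chains hold 10 to 20 regions, and the 27 regions at the start of chromosome 9 occupy an unusually short span.

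Most clusters lay in and around 1 or a few genes. Regions inside genes made up 57.8% of the members, against 46.8% of the other regions, and promoter regions (those whose centre lay within 1000 bp before or 100 bp after a TSS) made up 12.9% against 20.1%. Intergenic regions made up 29.3% of the members and 33.1% of the rest. In 192 chains all regions shared 1 nearest gene, 82 chains held no coding TSS, 184 held 1 and 164 held 2 or more, up to 15. The 430 chains carried 413 gene names, since 15 genes, among them Id2, Ets1, Bach2, Itga4 and Nfkb1, named more than 1 chain. Width and base composition differed little between members and other regions, with median widths of 531 and 533 bp and median GC contents of 49.5% and 49.9%. Median accessibility was higher, at 9.85 CPM in members and 6.97 CPM elsewhere.

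Total counts ran from 10282987 to 32797872 per library, of which members took 11.7% to 15%, or 8.09% to 12.1% without the chain at the start of chromosome 9. Replicates correlated at 0.928 (SI) to 0.974 (lung) in log2 CPM over the members, and each of the 10 libraries was closest to its own replicate. Promoter regions at 11 of 12 ILC2 marker genes (all but Thy1) had counts in every library, with a summed level of 272 to 420 CPM. The lowest values were those of Il1rl1 in SI, at 2.84 and 3.03 CPM, against 5.67 to 27.0 CPM in the other tissues. In the same SI libraries the T cell gene Cd3e had 5.25 and 4.77 CPM. Klrg1 had 7.58 and 8.7 CPM in BM and 22.4 to 55.4 CPM elsewhere. Of other cell types, promoter regions existed for 3 of 6 T cell genes (5.8 to 13.9 CPM summed), 1 of 5 B cell genes, 2 of 5 myeloid genes (12.4 to 22.6), 1 of 4 mast cell and basophil genes (7.37 to 23.3), 1 of 5 epithelial genes (1.16 to 4.91) and none of 3 each for NK cells or ILC1s and for ILC3s. The B cell gene was Ebf1, with 15.6 CPM in SI replicate 1 and 2.2 to 7.24 CPM in the other libraries, while Cd79a, Pax5 and Ms4a1 had no promoter region. The myeloid gene Spi1 was also highest in SI replicate 1, at 9.29 CPM against 0.386 to 3.91 CPM. So was the epithelial gene Krt18, at 4.91 CPM. The other myeloid gene, Cebpa, was not, at 12.2 CPM in SI replicate 1 and 10.5 to 19.2 CPM in the other libraries. The mast cell gene Cpa3 was lowest in SI replicate 1, at 7.37 CPM. The part of such cells in the SI values was not tested.

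The chains with the most regions included 2 in repeated DNA. The largest chain, with 41 regions at chr8:123538706-123629342, covered the array of 5S ribosomal RNA genes, a component of the large ribosomal subunit, and 32 annotated rRNA genes started inside it. Its BM libraries had 496.2 and 347.6 CPM and overlapped SI and pancreas (206.4 to 385.5 CPM in the other 8), and 2 of the 41 regions differed among tissues. In this chain 45.6% of the 31-base words occurred in more than 1 region. The 27 intergenic regions at chr9:3000214-3038343, with the nearest coding TSS (Alkbh8) far away, shared 53.5% of their words, and 95.7% of the bases of a median region there were soft-masked repeats. That chain alone took 1.31% to 5.72% of all counts, most in pancreas replicate 2 (63403 CPM) and LI replicate 1 (61709 CPM) and least in lung replicate 2 (11861 CPM). The first 2 libraries were also the shallowest, with 10282987 and 13290901 counts, and LI replicate 2 had 13288 CPM, so that the LI replicates spanned the levels of the other tissues except pancreas replicate 2 and lung replicate 2. Among the 430 chains, 7 with 141 regions held 10% or more repeated words, and 354 held none. Per the study's methods, only uniquely mapped reads were kept, so these counts come from reads with 1 best place in such repeats.

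Others of the chains with the most regions lay over 1 or a few genes. Mbnl1, which encodes a splicing regulator, carried 33 regions over chr3:60468840-60616596, all nearest to its TSS and 31 of them within genes. Its summed level was nearly flat, between 235.6 and 288.7 CPM in the 10 libraries, and the tissues did not differ by the F test of edgeR (adjusted p = 0.685), although 14 of its regions did. The Lif chain (30 regions, chr11:4186440-4320021) joined the neighbouring IL-6 family cytokine genes Lif and Osm with Castor1 and Tbc1d10a, with 277.7 CPM in the lowest library (lung) and 419.5 CPM in the highest (SI), and an adjusted p of 0.331. Coro2a (27 regions) and Ptk2b, which encodes the kinase PYK2 (27 regions), likewise missed the threshold, with adjusted p-values of 0.641 and 0.374.

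Atxn1, a transcriptional regulator, had 30 regions in its introns at chr13:45818284-45936264, and this chain did vary. BM libraries had 206.7 and 229.2 CPM, below all 8 others, which ran from 296.4 to 464.2 CPM. The BM level was 1.61-fold lower than the mean of the other tissues (log2 difference -0.69 ± 0.13 SE, edgeR adjusted p = 0.00158), 28 of 30 regions leaned the same way, and 27 differed among tissues.

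Mbp, the myelin basic protein gene, had 27 regions, with 395.3 and 418.2 CPM in SI, 446.1 and 458.2 CPM in BM and 492.0 to 638.7 CPM in the rest (SI log2 -0.42 ± 0.11, edgeR adjusted p = 0.0128). This call was lost without SI replicate 1 (adjusted p = 0.0904) and with library size alone (0.242).

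Sfi1, a centrosome gene, had 29 regions with high counts (1372.9 to 4063.4 CPM for the chain), 1.6-fold lower in SI (log2 -0.68 ± 0.19, edgeR adjusted p = 0.0222). The SI libraries, at 2015.6 and 1372.9 CPM, overlapped those of BM at 1974.5 and 1996.4 CPM. Without SI replicate 2 the difference from the mean of the other tissues was -0.44 and missed an adjusted p of 0.05. It also missed it with library size alone (edgeR adjusted p = 0.0969) and with the trend in GC content and width removed (0.0662). Ccr4, the receptor for the chemokines CCL17 and CCL22, stood in a chain of 27 regions at chr9:114367945-114510429 that included Glb1 and Tmppe. Its BM libraries had 248.7 and 282.7 CPM and the other 8 had 294.8 to 407.2 CPM, a difference of -0.39 ± 0.12 (edgeR adjusted p = 0.0265) with 18 of 27 regions on that side. This difference was -0.30 without BM replicate 1, -0.48 without BM replicate 2 and -0.39 without lung replicate 1. It missed an adjusted p of 0.05 in each of these fits. The F test of edgeR across tissues gave an adjusted p of 0.0546. Within this chain, an intronic region of Glb1 at chr9:114468126-114468840 had 2.3 and 2.67 CPM in BM and 8.19 to 29.9 CPM elsewhere, while the region at chr9:114401001-114401768, near the TSS of Tmppe, stayed between 34.3 and 46.5 CPM in all libraries.

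Differences among tissues were common in the clusters, at about the rate of the whole table. By the F test of edgeR across the 5 tissues, 2965 of 5908 member regions with a count differed at an adjusted p under 0.05, or 50.2%, against 44.2% of all regions tested. One member had no count. Member promoters differed less often (322 of 765, or 42.1%) than member regions within genes (1768 of 3412, or 51.8%) or between genes (875 of 1731, or 50.5%), and the same values for regions outside the clusters were 30%, 46% and 47.8%. The counts of each chain were then summed and tested as 1 feature, together with the 22516 chains of any length that had counts, single regions included. On this level 213 of 430 chains differed, or 49.5%, against 45.3% of all.

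A region or chain was called higher or lower in a tissue where it differed from each of the other 4 tissues at p under 0.05, not adjusted, in every one of the 4 contrasts, the rule the study used for tissue-specific OCRs. Of the member regions, 236 or 3.99% were higher in BM (4.5% of all regions) and 186 or 3.15% in SI (2.8%). Those higher in lung were 133 or 2.25% (1.3% of all regions), while pancreas had 79 or 1.34% (1.43%) and LI had 60 or 1.02% (1.3%), so that among these 5 shares that of lung alone differed from its background by more than 1.5 times, with no test of that difference. The count for lung was 41 without lung replicate 2, 84 without pancreas replicate 1 and 240 with library size alone. Lower in a tissue were 591 or 10% of the member regions in BM (6.63% of all regions), 286 or 4.84% in SI (3.59%) and 69 or 1.17% in lung (1.72%). Pancreas had 37 or 0.626% (0.572%) and LI had 6 or 0.102% (0.132%).

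Of the chains, 17 or 3.95% were higher in BM (5.82% of all chains), 12 or 2.79% in lung (1.09%) and 11 or 2.56% in SI (2.48%). Pancreas had 6 or 1.4% (1.43%) and LI had 3 or 0.698% (1.41%). Lower were 38 or 8.84% in BM (5.5% of all chains), 22 or 5.12% in SI (3.68%) and 4 or 0.93% in lung (2.15%). Pancreas had 1 or 0.233% (0.489%) and LI had 1 or 0.233% (0.12%). Altogether 105 of 430 chains, or 24.4%, were higher or lower in at least 1 tissue, a share not computed over all chains. With adjusted p-values in each contrast, the chains higher fell to 4 each for BM and SI, 2 for lung, 1 for pancreas and 0 for LI, and the chains lower to 25 in BM and 11 in SI. Without lung replicate 2 no chain was higher in lung, and scaling by library size without TMM left 3 chains higher in BM, 22 in lung and 13 in SI.

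**Figure D2:**
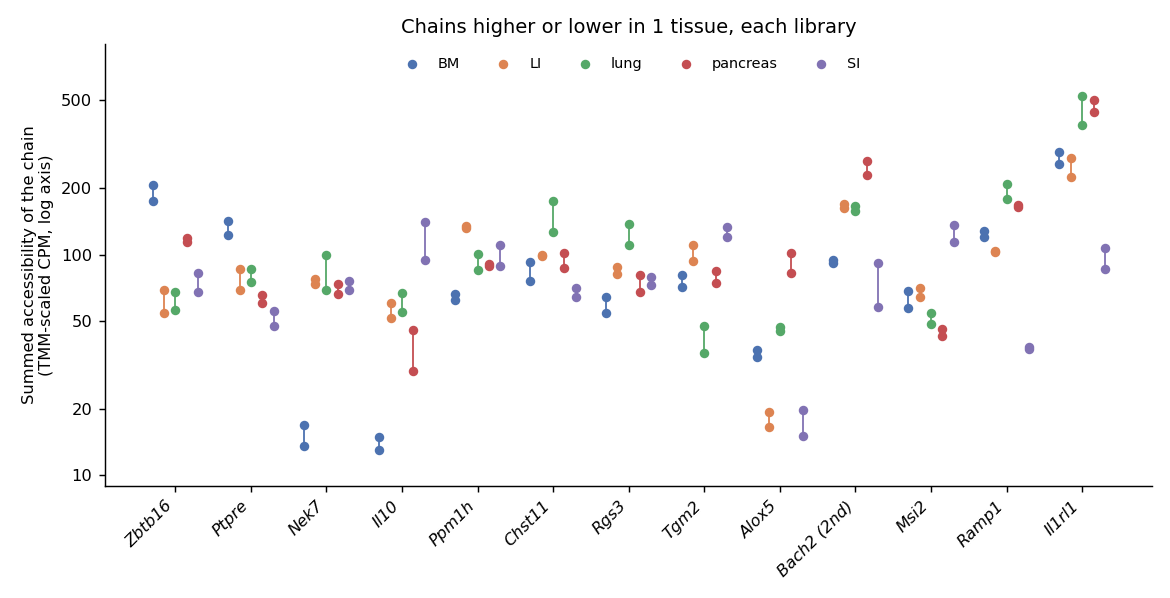
Each point is the summed TMM-scaled CPM of a chain in 1 library on a log axis, with a line joining the 2 libraries of a tissue, for 13 chains called higher or lower in a tissue. The Nek7 and Il10 chains are lowest in BM at 13.1 to 16.9 CPM, and Ramp1 and Il1rl1 are lowest in SI.

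In SI, the strongest differences were lower levels over receptor genes. Il1rl1, which encodes ST2, the IL-33 receptor, carried 19 regions over chr1:40380153-40448777, of which 12 were intergenic, 5 within the gene and 2 at promoters. SI libraries had 86.4 and 106.7 CPM, against 225.0 and 273.7 CPM in LI, 256.4 and 290.8 CPM in BM, 386.2 and 523.6 CPM in lung, and 441.7 and 500.7 CPM in pancreas. SI did not overlap any other tissue, and LI and BM overlapped each other, as did lung and pancreas. The chain was 3.6-fold lower in SI (log2 -1.85 ± 0.16, edgeR adjusted p = 3.74e-06), every one of the 19 regions was on that side, and 18 were called lower in SI one by one. Since ST2 marked the cells in the other gates and not in SI, the gate and the tissue cannot be told apart in this result.

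The difference was not even along the Il1rl1 chain. The intronic region at chr1:40448262-40448777, whose centre is printed above, had 0.488 and 0.626 CPM in SI and 1.06 and 1.47 CPM in BM, but 14.5 to 23.8 CPM in lung and pancreas. Its LI libraries had 5.32 and 7.82 CPM. In contrast, the intergenic region at chr1:40427163-40427728, about 2 kb upstream of the TSS, had 11.3 and 18.9 CPM in SI and 19 to 33.5 CPM in the other tissues (log2 -0.87 ± 0.21). The first intergenic region of the chain, far upstream, had a mean of 14.0 CPM in SI and 34.4 to 58.6 CPM in the other tissues (log2 -1.64), while 1 of its 2 promoter regions had 2.94 CPM in SI and 17.8 CPM in BM.

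**Figure D3:**
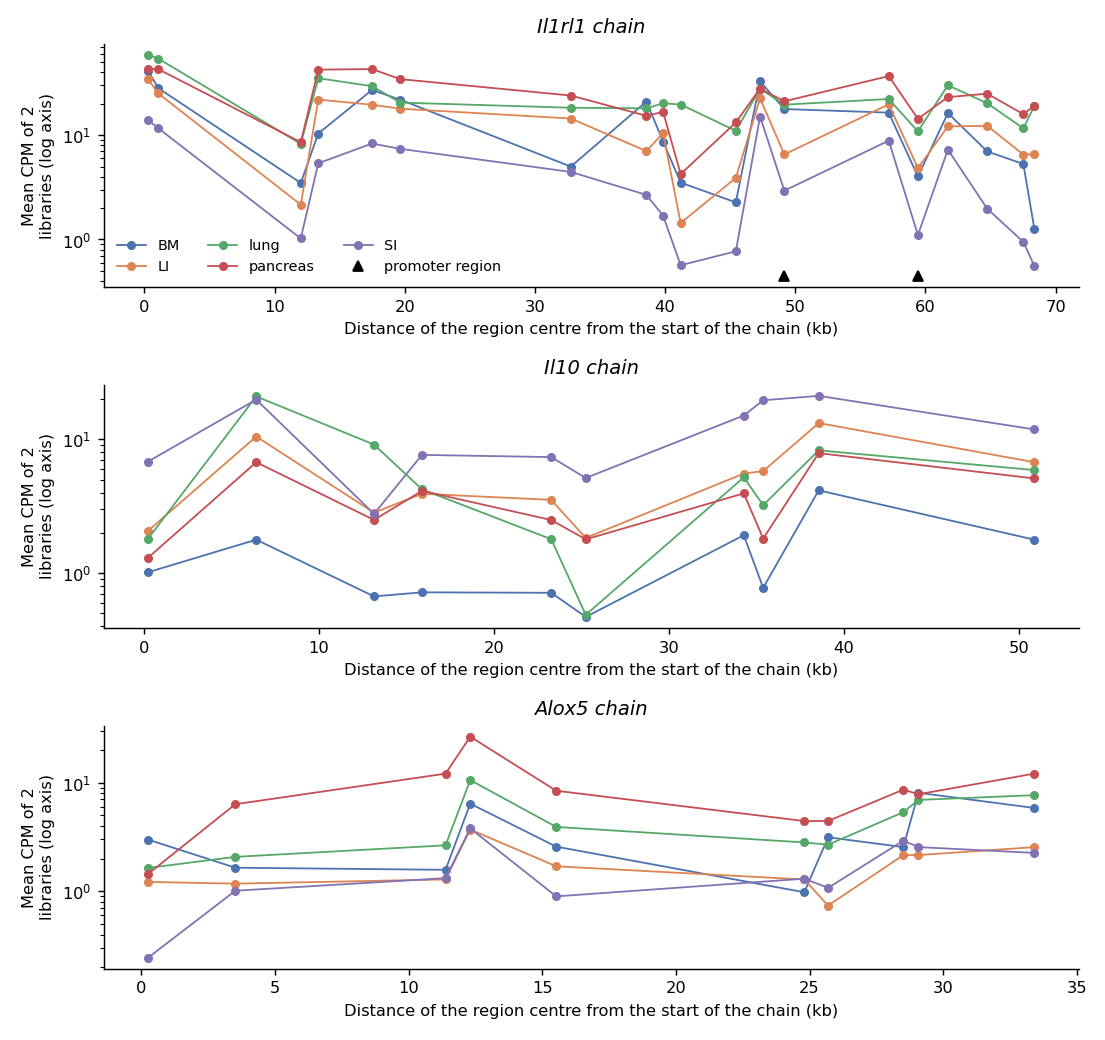
Mean CPM of 2 libraries per tissue (log axis) is drawn for each region of the Il1rl1, Il10 and Alox5 chains against the distance of its centre from the start of the chain in kb. SI is lowest in all 19 regions of Il1rl1 on these means, and BM is lowest in all 10 of Il10. Black triangles mark promoter regions.

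Ramp1, which encodes a subunit of the receptor for the neuropeptide CGRP, had 11 regions at chr1:91179033-91220751, 10 of them in the gene. SI libraries had 38.3 and 37.4 CPM, and the lowest values elsewhere were 103.0 and 104.0 CPM in LI. BM had 119.7 and 128.0 CPM, pancreas 168.6 and 164.6 CPM, and lung 179.2 and 209.4 CPM. The SI level was 3.77-fold lower than the mean of the others (log2 -1.91 ± 0.12, edgeR adjusted p = 2.31e-07), with all 11 regions on that side and all 11 differing among tissues. Its most variable region, at chr1:91202267-91202767 in an intron, had 0.523 and 1.01 CPM in SI and also only 0.489 and 1.1 CPM in BM, against 9.64 and 11.2 CPM in lung. The region at the first exon (chr1:91179774-91180458) varied least, with 6.27 and 8.52 CPM in SI and 14.3 to 23.6 CPM in the rest.

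The other 20 chains lower in SI, named here after their values were seen, included Mdfic, the first Bhlhe40 chain, Il10ra, Arg1, Thy1, Rora and the first Bach2 chain. Arg1, which encodes the arginine-degrading enzyme arginase-1, had 88.6 and 77.4 CPM in SI and 120.3 to 231.0 CPM elsewhere. Rora, a transcription factor needed for ILC2 development, had 126.5 and 186.9 CPM in SI, just under the lowest other library at 189.4 CPM in LI (log2 -0.61 ± 0.15, edgeR adjusted p = 0.00989). Thy1, a surface protein used in the SI gate itself, had 44.5 and 45.7 CPM in SI, 63.3 to 83.2 CPM in BM, LI and pancreas and 101.0 and 101.6 CPM in lung.

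Higher in SI were 11 chains, of which Il10 and Msi2 are described here. Msi2, an RNA-binding regulator of translation, had 10 regions at chr11:88598498-88643658. SI libraries had 136.6 and 114.3 CPM and the others 43.0 to 70.8 CPM, a 2.25-fold difference (log2 1.17 ± 0.11, edgeR adjusted p = 9.68e-06). All 10 regions leaned towards SI.

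Il10, the gene of the regulatory cytokine IL-10, had 10 regions at chr1:130987436-131038605, none of them a promoter region, and was called in both SI and BM. SI libraries had 140.2 and 94.5 CPM, BM libraries 14.9 and 13.1 CPM, and the libraries of LI, lung and pancreas lay between, at 51.9 to 67.0 CPM in LI and lung and 29.6 and 45.7 CPM in pancreas. The 3 levels did not overlap. The chain was 3.21-fold higher in SI (log2 1.68 ± 0.16, edgeR adjusted p = 6.96e-06) and 4.45-fold lower in BM (log2 -2.15 ± 0.21, edgeR adjusted p = 6.41e-06). All 10 regions differed among tissues, 7 were called higher in SI and 8 lower in BM. SI replicates were apart at the most variable region (chr1:131022562-131023092, in an intron), with 29.8 CPM in replicate 1 and 9.44 CPM in replicate 2, the library order that the Ebf1 and Spi1 promoter regions also had. The Cpa3 promoter region had the reverse order, at 7.37 and 11.8 CPM. Even the lower of the 2 SI values at this Il10 region exceeded all other libraries, the next being 6.8 CPM in LI.

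In BM, 38 chains were lower and 17 higher, but without BM replicate 2 the counts were 33 and 35. The chains higher in BM were 4 without BM replicate 1, lung replicate 1 or lung replicate 2, and 8 without SI replicate 1. The largest difference among the chains described here was at Nek7. This kinase gene, whose product is a component of the NLRP3 inflammasome, held 10 intronic regions at chr1:138535903-138571537. BM libraries had 13.7 and 16.9 CPM, and the other 8 libraries had 66.3 to 99.3 CPM. The level in BM was 4.94-fold lower (log2 -2.30 ± 0.17, edgeR adjusted p = 1.04e-06), every region was on that side, and 9 differed among tissues. At chr1:138535903-138536487, the region of the printed window, BM had 0.979 and 1.47 CPM against 15.2 to 28.3 CPM in LI, lung and pancreas, and the SI replicates had 2.36 and 10.5 CPM.

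Irf4, a transcription factor induced by activation and named here after its values were seen, had a chain of 18 regions lower in BM, with 55.9 and 59.5 CPM in BM and 111.0 to 179.4 CPM in the other libraries. All 38 chains lower in BM had under 25% promoter regions, as did 362 of the 430 chains in all.

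Higher in BM by the largest margins were Ptpre, Zbtb16 and Tbc1d2b. Zbtb16 encodes PLZF, a transcription factor of innate lymphoid precursors. Its 10 regions at chr9:48783306-48837602 had 175.5 and 207.4 CPM in BM, 114.4 and 119.2 CPM in pancreas, and 54.3 to 82.7 CPM in LI, lung and SI. BM was 2.51-fold higher (log2 1.33 ± 0.12, edgeR adjusted p = 4.88e-06), all 10 regions differed among tissues and 8 were called higher in BM. The printed window lies in an intronic region with 6.66 and 5.66 CPM in BM, 2.89 and 3.34 CPM in pancreas and 0.552 to 1.74 CPM in the rest.

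Ptpre, a receptor-type tyrosine phosphatase gene, had 10 regions (chr7:135567554-135616951) with 122.5 and 142.5 CPM in BM and 47.6 to 86.4 CPM elsewhere, 1.97-fold higher in BM (log2 0.98 ± 0.12, edgeR adjusted p = 3.9e-05). Tbc1d2b, a regulator of Rab GTPases, had 90.6 and 79.2 CPM in BM against 30.2 to 59.4 CPM, a 1.73-fold difference (log2 0.79 ± 0.13, edgeR adjusted p = 0.000462). In the Tbc1d2b chain the difference was concentrated. Only 7 of 10 regions were on its side, and the region at chr9:90250303-90250803 had 10.8 and 6.76 CPM in BM and at most 1.73 CPM in any other library.

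Chains higher in BM were then set against their share of promoter regions. Of the 19 chains with 50% or more promoter regions, 8 were higher in BM and none was lower, with a median log2 difference of 0.45. The 49 chains with 25% to 50% held 3 such chains, and the 362 chains with less than 25% held 6, at a median of -0.05. The promoter-rich chains had a median GC content of 58.2% against 48.5%, and with the trend in GC content and width removed from each library their median difference in BM was 0.28. The number of chains higher in BM was 18 with that trend removed, and 5 when only regions outside promoters were summed. These counts rest on the 17 chains whose number moved with single libraries, as given above. The part of base composition in this result was not tested further. The same split was not made outside the clusters. Over all regions, the paper also found many of its BM-specific OCRs at promoters.

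**Figure D4:**
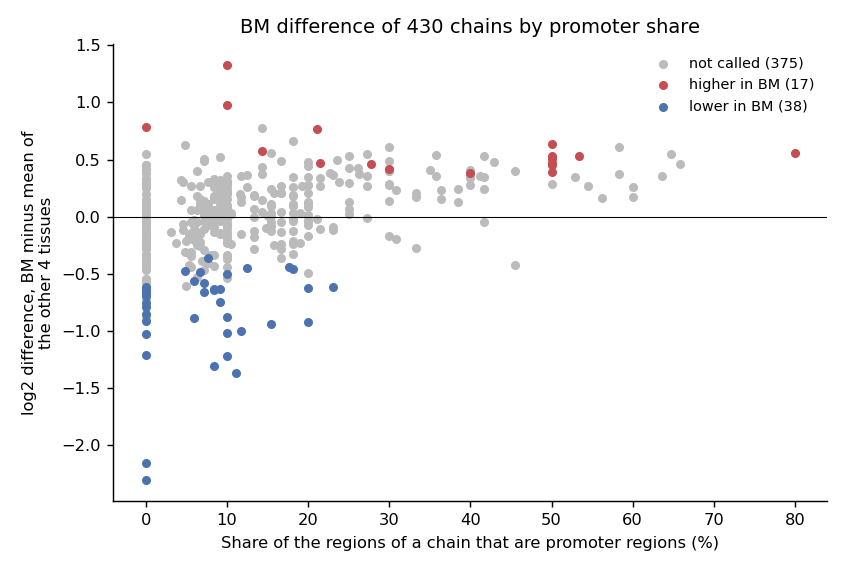
Each point is 1 of 430 chains, with the percentage of its regions that are promoter regions on the x axis and its log2 difference of BM from the mean of the other 4 tissues on the y axis. Chains called higher in BM (17) spread to high promoter shares, and the 38 chains called lower lie at the left, as most chains do.

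In lung, 12 chains were higher, and by the margin over the nearest other tissue Chst11, Rgs3 and Ptpn22 came first. Chst11, a sulfotransferase of chondroitin synthesis, had 14 intronic regions at chr10:83069642-83152805, with 127.3 and 175.7 CPM in lung and 64.3 to 101.6 CPM elsewhere, 1.78-fold higher (log2 0.83 ± 0.13, edgeR adjusted p = 0.000779). Rgs3, a brake on G protein signalling, had 10 intergenic regions at chr4:62738241-62781791 with 110.6 and 138.0 CPM in lung and 54.5 to 87.8 CPM elsewhere. Its region at chr4:62776692-62777208, printed above, had 16.9 and 24.7 CPM in lung, 9.59 and 10.4 CPM in LI, 3.27 to 7.12 CPM in pancreas and SI, and only 0.979 and 1.24 CPM in BM. Ptpn22, a phosphatase that restrains lymphocyte activation, had 234.9 and 284.1 CPM in lung and 152.5 to 205.3 CPM elsewhere over 12 regions. None of these 3 remained below an adjusted p of 0.05 without lung replicate 2 (0.0956, 0.0897 and 0.301).

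Bcl11b, a transcription factor required by ILC2s, also belonged to this group. Its 20 regions at chr12:107918725-108006645 had 255.7 and 296.8 CPM in lung, 202.5 and 213.9 CPM in pancreas, 190.1 and 212.6 CPM in LI, 124.7 and 172.5 CPM in SI, and 128.8 and 139.1 CPM in BM. Lung did not overlap the others (log2 0.70 ± 0.12, edgeR adjusted p = 0.00182, and 0.11 without lung replicate 2), and 5 of its regions were called lower in BM. The window printed above lies in its most variable region, with 24.6 and 31.4 CPM in lung and 2.45 and 3.64 CPM in BM.

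Tgm2, a protein cross-linking transglutaminase, was lower in lung over its 10 regions at chr2:158121870-158179446. Lung libraries had 47.4 and 36.0 CPM and the others 71.6 to 132.9 CPM, with SI the highest. The difference was 2.26-fold (log2 -1.17 ± 0.14, edgeR adjusted p = 0.00013) and all 10 regions were on that side. Ugcg, the glucosylceramide synthase gene, had 13 regions with 131.4 and 124.3 CPM in lung and 175.8 to 240.9 CPM elsewhere (log2 -0.73 ± 0.13, edgeR adjusted p = 0.00205, and 0.108 without lung replicate 2).

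In pancreas, Alox5 stood out among the 6 chains called higher. It encodes 5-lipoxygenase, the first enzyme of leukotriene synthesis. Its 10 regions at chr6:116427561-116461222, all within the gene, had 82.2 and 101.8 CPM in pancreas, 45.3 and 47.1 CPM in lung, 37.0 and 34.4 CPM in BM, 19.4 and 16.6 CPM in LI, and 19.7 and 15 CPM in SI. Only LI and SI overlapped. The pancreas level was 3.43-fold higher than the mean of the others (log2 1.78 ± 0.13, edgeR adjusted p = 1.26e-06) and all 10 regions leaned that way. The region of the printed window (chr6:116438691-116439191) had 8.72 and 15.4 CPM in pancreas and 0.825 to 2.98 CPM elsewhere.

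The second Bach2 chain (chr4:32335572-32406228), upstream of the gene of a transcriptional repressor of effector programmes, had 12 intergenic regions. Pancreas libraries had 266.2 and 229.4 CPM, LI and lung 158.3 to 170.0 CPM, BM 91.8 and 94.4 CPM, and SI 92.1 and 57.8 CPM. It was 2.12-fold higher in pancreas (log2 1.08 ± 0.13, edgeR adjusted p = 0.000125) and all 12 regions differed among tissues. Of the 23 regions nearest to Bach2 in its 2 chains, 10 were lower in SI and 5 higher in pancreas. The second Nck2 chain (an adaptor of receptor signalling, chr1:43520176-43562805) had 235.4 and 242.2 CPM in pancreas and 115.0 to 195.4 CPM elsewhere (log2 0.73 ± 0.12, edgeR adjusted p = 0.00143). Sema4b, a membrane-bound semaphorin, was the 1 chain lower in pancreas, with 75.1 and 78.1 CPM against 99.8 to 203.8 CPM (log2 -0.77 ± 0.15, edgeR adjusted p = 0.00369), a call that was lost without either pancreas library (adjusted p = 0.0645 and 0.065).

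LI had the fewest chains of its own. Ppm1h, a protein phosphatase gene, had 10 intronic regions at chr10:122700793-122769982 with 134.7 and 132.2 CPM in LI and 62.4 to 110.1 CPM elsewhere, 1.56-fold higher (log2 0.64 ± 0.11, edgeR adjusted p = 0.00191). Ninj2, an adhesion protein gene, had 168.2 and 191.6 CPM in LI and 88.3 to 151.4 CPM elsewhere (log2 0.56 ± 0.10, edgeR adjusted p = 0.00257), but only 8 of 12 regions were on that side and the call was lost without LI replicate 2 (adjusted p = 0.1). The third Akap13 chain (a protein kinase A anchoring protein, chr7:75629613-75671553) had 170.4 and 216.0 CPM in LI and 123.0 to 160.8 CPM elsewhere, with an adjusted p of 0.0168 that rose to 0.367 without LI replicate 2. Arid3a, a DNA-binding protein in a gene-dense chain with the neutrophil protease genes Elane and Prtn3, was lower in LI, at 244.3 and 223.7 CPM, and higher in BM, at 466.8 and 412.2 CPM, with 289.3 to 363.0 CPM in the others. The LI difference was lost without LI replicate 2 (adjusted p = 0.106), and only 4 of its 14 regions differed among tissues.

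Lists of genes with known roles in ILC2s were read against all members, of which 50.2% differed among tissues, 10% were lower and 3.99% higher in BM, and 4.84% were lower and 3.15% higher in SI. Of 28 listed transcription factor genes of ILC2s, 16 were nearest to a member region, with 255 of their 737 regions in chains. Of those 255 regions, 140 (54.9%) differed among tissues, 33 (12.9%) were lower and 11 (4.31%) higher in BM, and 18 (7.06%) were lower and 3 (1.18%) higher in SI, with median log2 differences of -0.27 in BM and -0.15 in SI, against -0.11 and 0.03 over all members. Of the 11 higher in BM, 8 belonged to Zbtb16. Among 25 receptor and surface protein genes, 8 had 76 member regions, of which 50 (65.8%) differed. Of these 76, 22 (28.9%) were lower in SI, 18 of them at Il1rl1, and 1 (1.32%) higher, while 4 (5.26%) were lower and 0 higher in BM. Type 2 cytokine and effector genes (7 of 15) had 66 member regions, of which 38 (57.6%) differed. Of these 66, 8 (12.1%) were higher in SI, 7 of them at Il10, and 4 (6.06%) lower. In BM 10 (15.2%) were lower, 8 of them at Il10, and 2 (3.03%) higher. Activation and feedback genes (13 of 40 genes) had 140 member regions, of which 69 (49.3%) differed, 7 (5%) were lower and 3 (2.14%) higher in BM, and 9 (6.43%) were lower and 4 (2.86%) higher in SI. Homing and residency genes (8 of 16 genes) had 87, of which 39 (44.8%) differed, 6 (6.9%) were lower and 3 (3.45%) higher in BM, and 4 (4.6%) were lower and 2 (2.3%) higher in SI. None of the listed genes of T cells, B cells, myeloid cells, mast cells and basophils, NK cells and ILC1s, ILC3s or epithelium was nearest to a member region. These lists had few regions in the whole table, 5 (B cell) to 26 (mast cell and basophil) each, and 11.8% of all regions were members.

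Several of these clusters were open in all tissues, and the first 2 given here were chosen after their values were seen. Gata3, the master transcription factor of ILC2s, had a chain of 10 regions with 210.5 to 262.2 CPM in the 10 libraries (adjusted p of the F test 0.873). The first Id2 chain, of 18 regions, had 286.9 to 417.3 CPM (adjusted p = 0.642). The chain of 21 regions at Irf1, Il5 and Rad50 (chr11:53706849-53821043), which is part of the type 2 cytokine locus, had 319.3 to 424.4 CPM (adjusted p = 0.75). A missed threshold does not show equal levels, and single regions in such chains did differ. In the Irf1 chain, the intronic region at chr11:53820444-53821043 had 18.1 and 19.5 CPM in SI and 12.3 and 16.4 CPM in LI, but 3.69 to 7.12 CPM in BM, lung and pancreas.

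The chain of Ikzf1, which encodes Ikaros, had 25 regions at chr11:11646284-11750762, 21 of them nearest to Ikzf1. It had 238.4 and 251.3 CPM in BM, 259.7 and 276.9 CPM in SI and 310.4 to 339.3 CPM in the rest. The BM value was lower by a small margin (log2 -0.34 ± 0.11, edgeR adjusted p = 0.0243). This difference was -0.30 without BM replicate 1, -0.38 without BM replicate 2 and -0.33 without lung replicate 2. It missed an adjusted p of 0.05 in each of these fits. With the trend in GC content and width removed it missed it as well (edgeR adjusted p = 0.117). The most variable region of the chain ran the other way, since chr11:11651790-11652296 had 7.05 and 8.7 CPM in BM, 3.56 to 8.3 CPM in lung and pancreas, and 0.209 to 1.65 CPM in LI and SI. The chain of Tcf7, the gene of TCF-1, had 22 regions (195.5 to 300.2 CPM), 15 of them nearest to Tcf7, with an F test adjusted p of 0.0895. That of Cd69, a residency and activation marker, had 18 regions (307.3 to 479.6 CPM, F test adjusted p = 0.18), 13 of them nearest to Cd69. One of them, at chr6:129266279-129267146, had 29.6 and 31.8 CPM in LI and 5.19 to 19.7 CPM elsewhere. The chains with Cish (named by Mapkapk3), Fosb, Nr4a1 (named by Acvr1b) and Itgal had summed levels within 371.0 to 797.8 CPM. Fosb was above the mean of the other tissues in BM (log2 0.37 ± 0.11, edgeR adjusted p = 0.021), but its F test across tissues gave an adjusted p of 0.104. Itgal was also above it (log2 0.42 ± 0.12, edgeR adjusted p = 0.0154), with 13 of 23 regions on that side. Of the 5 regions nearest to Itgal, 0 differed among tissues. Both chains missed an adjusted p of 0.05 without BM replicate 1 (log2 0.39 and 0.22) and with library size alone (edgeR adjusted p = 0.191 and 0.117). Fosb also missed it without BM replicate 2, lung replicate 1 or lung replicate 2 (log2 0.35, 0.37 and 0.36). With the GC content and width trend removed, its edgeR adjusted p was 0.102. The Mapkapk3 chain was above the mean of the other tissues in lung (log2 0.37 ± 0.11, edgeR adjusted p = 0.0438). Lung had 719.5 and 797.8 CPM, and pancreas overlapped it at 673.4 and 789.2 CPM. Its smallest log2 difference from another single tissue was 0.05. The difference from the mean was 0.45 without lung replicate 1 and 0.31 without lung replicate 2. In both of these fits it missed an adjusted p of 0.05. So it did without BM replicate 1 or 2, LI replicate 1, pancreas replicate 2 or SI replicate 1. It also missed it with a replicate block (edgeR adjusted p = 0.0563) and with the GC content and width trend removed (0.0769).

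Regions of 1 chain moved together only in part. Of 115 calls of a chain as higher or lower in a tissue, 44 had every region on the same side as the sum, the median share of regions on that side was 92.3% and the lowest 57.1%. Over all members, differences between chains held 25.3% (BM) to 31.1% (SI) of the variance in the log2 difference of a tissue from the others, and the spread within chains was 0.42 (LI) to 0.69 (BM) as an SD. That spread includes the error of each region's own estimate, which was not separated from it. Among the 217 chains whose sum did not differ by the F test, 196 still held 3 or more regions that did. A region called higher in a tissue was present in 319 chains, and 126 chains held regions called higher in 2 or more different tissues. Over all regions tested, 44.2% differed among tissues. Those called higher were 4.5% (BM), 2.8% (SI), 1.43% (pancreas), 1.3% (LI) and 1.3% (lung). Chains of many regions would often hold such regions at these rates alone. Whether the counts of 196, 319 and 126 chains depart from those rates was not tested. All values in this paragraph are descriptions, because regions of a chain share libraries and position.

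Likeness between neighbours declined with the gap between them, inside dense chains and outside alike. The correlation of the 5 tissue means of adjacent regions had a median of 0.629 for 1150 pairs under 1 kb apart inside the chains and 0.413 for 2101 pairs 5 to 12.5 kb apart. In shorter chains the same medians were 0.642 and 0.424. Between chains it was 0.392 at 12.5 to 25 kb and 0.236 at 100 to 500 kb. With 5 points per pair these values scatter widely.

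**Figure D5:**
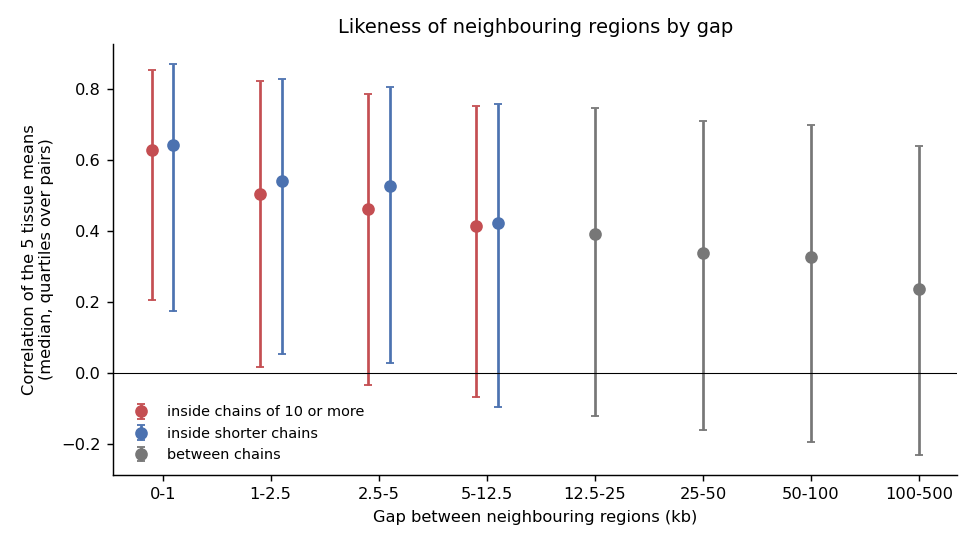
Points are medians and bars the quartiles of the correlation of 5 tissue means between adjacent regions, by the gap between them in kb. Regions inside chains of 10 or more and inside shorter chains have similar medians in each bin, falling from above 0.6 to about 0.4.

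Letters of the 6 motifs were counted in the central 150 bases of every region, on both strands and with overlaps between motifs allowed. Members held GATA in 11.2% of windows (all regions 10.0%), RUNX in 20.3% (18.7%), AP-1 in 14.8% (12.5%), E-box in 10.9% (9.88%), TCF/LEF in 9.54% (8.81%) and ETS in 4.81% (6.84%). Shares varied more with the tissue pattern than with membership. AP-1 letters were in 4.66% of the 236 members higher in BM and in 26.2% of the 591 lower in BM, and regions outside the clusters had 5.17% and 28.9%. GATA letters were in 21.6% of members higher in BM, in 20.6% of the 286 lower in SI and in 6.99% of the 186 higher in SI, against 24.5%, 21.8% and 8.07% outside. Of the 60 members higher in LI, 31.7% held AP-1 letters (33.4% outside). The RUNX share was 28.5% in members higher in SI (29.5% outside) and 8.86% in the 79 higher in pancreas (19% outside).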

How the data were processed

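The 10 ATAC-seq libraries covered 5 tissues with 2 libraries each. Per the labels and the study's methods, the authors removed adapters and poor reads, aligned the rest to mm10 (Bowtie2 2.2.9, SAMtools 1.8), kept uniquely mapped reads, called peaks with MACS2 2.1.1, retained those seen in each of the replicates, merged the tissues' peaks and deposited raw read counts per merged region. A region could thus enter through the tissue in which it is open. Removal of duplicate reads and a Tn5 shift are not given in the sources used here.

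Chains were built from the positions in that table. The members and gene lists were chosen with earlier results of these data known. Counts per region, and counts summed per chain for chains of any length, were tested with edgeR 4.0.16 (R 4.3.3) by quasi-likelihood F tests with TMM scaling in 1 fit over all 10 libraries, with Benjamini-Hochberg adjustment over 49981 regions or 22516 chains at 0.05. Values written as log2 are a tissue minus the mean of the other 4, and the SE is that difference divided by the root of its F statistic. No low-count filter was used, but 58 regions without any count were left out. Positions, base composition and genes came from GRCm38 with RefSeq genes. The fits were tested on simulated data.

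Named were the 10 chains with most regions, for each tissue up to 3 chains higher and 2 lower by the margin over the nearest other tissue, up to 12 chains with most regions that held 3 or more regions nearest to a listed gene, and in each the regions with the largest and smallest spread between tissues. A chain that this rule named is not reported here. Alternatives were DESeq2 1.42.0, other scalings, a count filter, a trend in GC content and width, the chain rule, a replicate block and each library left out.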

Additional observations from a re-analysis of the deposited data

How the results depend on the processing

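Of 714 recomputed values for the 42 named chain differences, 658 kept direction and side of the threshold, 47 lost it, 8 gained it and 1 reversed, the Mbnl1 chain in BM (0.10 with the trend in GC content and width removed). With library size alone, which put the median log2 difference of all regions at 0.2 in SI and 0.18 in lung (0.03 and 0.0 with TMM), member regions higher were 341 in SI, 240 in lung, 102 in BM, 37 in pancreas and 24 in LI; chains higher were 22 in lung, 3 in BM, 1 in pancreas and 0 in LI, and chains lower 1 in lung, 2 in pancreas and 5 in SI. DESeq2 gave 26 chains higher in BM and 3 lower in LI. With the GC content and width trend removed, 32 member regions were higher in LI, chains higher were 1 in LI, 7 in lung and 17 in SI, and chains lower 2 in LI, 7 in lung and 2 in pancreas. Outside promoters, 5 chains were higher in BM, 2 lower in LI and 7 lower in lung. With adjusted p-values in each contrast, member regions higher were 95 for BM, 39 for SI, 34 for lung, 14 for pancreas and 6 for LI, chains higher 4, 4, 2, 1 and 0 in that order, and chains lower 25 in BM, 0 in LI, 0 in pancreas and 11 in SI. The cause of these shifts was not tested. A gap of at most 5 kb left 23 chains with 299 regions, one of 25 kb gave 1069 with 18113, a minimum of 8 regions 761 chains, and one of 15 gave 135 with 2529.

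Leaving out each library in turn gave 2135 to 3420 member regions differing, with 94 to 298 higher for BM, 100 to 282 for SI, 41 to 156 for lung, 52 to 104 in pancreas and 36 to 70 in LI. Chains differing were 130 to 232, chains higher 4 to 35 for BM, 6 to 12 for SI, 0 to 15 for lung (0 without lung replicate 2), 4 to 8 in pancreas and 0 to 5 in LI, and chains lower 29 to 37 for BM (without BM replicate 2, 35 higher and 33 lower), 15 to 30 for SI, 3 to 5 for lung, 0 to 1 for pancreas and 0 to 2 in LI. In such fits the lone library is assumed to vary like the others.

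Correlations of same-numbered deviations ran from -0.22 to 0.2, and 4 of 10 exceeded 0.1. Whether replicate numbers pair the samples is not given in the sources used here. With 2 libraries per tissue, these values cannot settle it. With a replicate block, 200 chains differed. Leaving out the 7 chains with repeated sequence, an alternative chosen after seeing the data, left 207 of the chains and 2908 member regions differing. With 2 libraries per tissue, small differences cannot be resolved.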

Other observations

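Of the 430 chains, 10 (2.33%) were higher in 1 tissue and lower in another, namely Arid3a, Lmnb1, Ninj2, Thy1, Spin1, Tbc1d2b, Mras, Ppm1h, Il10 and Cox4i2. The same share over all chains was not computed, so this count is a description only. Mras, a small GTPase gene chosen here after its values were seen, had 118.2 and 157.3 CPM in SI, 84.8 and 82.3 CPM in LI, 41.0 to 54.2 CPM in lung and pancreas, and 27.9 and 32.2 CPM in BM.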
